A study of Oryza sativa with 3 samples.

Results

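Chromosomes 11 and 12 of rice carried 1651 of the 10250 peaks in 3 lists of genome regions enriched for 5-hydroxymethylcytosine (5hmC). The members are every peak that the lists place on either chromosome, and no measured value was used to choose them. LYP9 gave 583 of them, 93-11 gave 657 and PA64s gave 411. LYP9 is a hybrid rice, 93-11 is its indica pollen parent and PA64s is its male-sterile seed parent. All 3 were sampled as young panicles of 3 to 4 mm from the field, with no treatment named, and each is represented by 1 library. 5hmC in the DNA was glucosylated with an azide-bearing sugar, tagged with biotin, pulled down on streptavidin and sequenced. The 3 libraries held 10078296 tags for LYP9, 10007148 for 93-11 and 11948210 for PA64s, totals that include organelle tags. No input library was used by the peak caller.

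5hmC is an oxidised form of 5-methylcytosine. In mammals it is made by the TET dioxygenases, for which plants have no clear counterpart, and reported amounts in plant DNA are very low. The panicle is the flower-bearing shoot of rice, and at the lengths sampled its florets are still forming. Chromosomes 11 and 12 are known for a duplicated segment that they share at the ends of their short arms, where gene conversion has kept the copies alike. Both are also known for clusters of disease resistance genes. The coordinates below are those of the lists, for which the sources used here name no genome build, so peaks are named by position and not by gene.

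With 1 library per cultivar there was no replicate check and no test between cultivars. With 1 exception, ranges in parentheses are exact 95% intervals, from the Poisson distribution for densities, the binomial (Clopper-Pearson) for shares, the conditional binomial for ratios of densities and order statistics for medians. The exception is the ratio of medians of chromosome 11 over chromosome 12. Its range divides opposite ends of the intervals of both medians, so it is not exact and is wider than a 95% interval. All ranges cover counting error only and treat neighbouring peaks as independent. The exact intervals are therefore too narrow where peaks lie in clusters. A peak list also holds no value for a region in which no peak was called.

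Chromosomes 11 and 12 together held 16.7% of the nuclear peaks of LYP9 (15.5 to 18.0), 16.5% of those of 93-11 (15.4 to 17.7) and 17.2% of those of PA64s (15.7 to 18.7). They made up 15% of the nuclear length, taking the last peak end of any list as the length of each chromosome (28.48 Mb for chromosome 11 and 27.20 Mb for chromosome 12). Their shares of the peaks were thus slightly above their share of the length in all 3 lists.

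Chromosome 11 had fewer peaks per Mb than chromosome 12 in each list, and the gap was widest in PA64s. In LYP9, chromosome 11 had 10.1 peaks per Mb (8.98 to 11.3) and chromosome 12 had 10.8 (9.64 to 12.2). In 93-11 the densities were 11.2 per Mb (10.0 to 12.5) on chromosome 11 and 12.4 (11.1 to 13.8) on chromosome 12. In PA64s they were 6.42 per Mb (5.53 to 7.43) on chromosome 11 and 8.38 (7.33 to 9.54) on chromosome 12. The density ratio of chromosome 11 over chromosome 12 was 0.932 in LYP9 (0.790 to 1.10), 0.907 in 93-11 (0.776 to 1.06) and 0.766 in PA64s (0.627 to 0.935). The interval lay below 1 in PA64s and included 1 in the other two lists. The 10 other nuclear chromosomes pooled had 9.21 peaks per Mb in LYP9, 10.5 in 93-11 and 6.29 in PA64s. Among the 12 nuclear chromosomes, chromosome 11 ranked 6 in density in LYP9 and 93-11 and 8 in PA64s, and chromosome 12 ranked 5, 5 and 2 in the same lists.

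The gap between the chromosomes widened among the strongest peaks. MACS, the peak caller, scores each peak by the −log10 of its p-value. Counting only peaks with a score of at least 15, chromosome 11 kept 122 peaks in LYP9, 135 in 93-11 and 73 in PA64s, and chromosome 12 kept 170, 208 and 130. The density ratio of chromosome 11 over chromosome 12 was then 0.685 in LYP9, 0.620 in 93-11 and 0.536 in PA64s. A single cluster of chromosome 12, from 20434420 to 20635078, weighed on this comparison. Without it the density ratio over all scores was 1.05 in LYP9, 1.00 in 93-11 and 0.838 in PA64s (0.683 to 1.03), so that the interval of PA64s also included 1. Leaving out the densest 1 Mb window of each chromosome instead, the PA64s ratio was 0.753 (0.609 to 0.930). With peaks within 500 bp merged it was 0.788 (0.636 to 0.976). Both of these intervals lay below 1, and those of LYP9 and 93-11 still included 1. Among the peaks with a score of at least 15 the ratio without the cluster was 0.850 in LYP9 (0.660 to 1.09), 0.740 in 93-11 (0.586 to 0.932) and 0.635 in PA64s (0.465 to 0.862). This cluster, described further below, was picked out after its values were seen. It is the run of chromosome 12 peaks, each within 50 kb of the one before, that holds the most peaks of the 3 lists.

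The ends of the short arms, where the duplicated segment lies, were poor in peaks in all 3 lists. On chromosome 11 the first 3 Mb held 10 LYP9 peaks, 12 of 93-11 and 5 of PA64s. On chromosome 12 they held 9 LYP9 peaks, 14 of 93-11 and 7 of PA64s. The density in the first 3 Mb of chromosome 11 was 3.33 per Mb against 10.9 in the rest in LYP9, 4 against 12.1 in 93-11, and 1.67 against 6.98 in PA64s. The corresponding ratios were 0.306 (0.145 to 0.570), 0.331 (0.169 to 0.587) and 0.239 (0.0765 to 0.567). On chromosome 12 the density was 3 per Mb in the first 3 Mb against 11.8 in the rest in LYP9, 4.67 against 13.3 in 93-11, and 2.33 against 9.13 in PA64s. Those ratios were 0.254 (0.115 to 0.489), 0.350 (0.189 to 0.595) and 0.256 (0.102 to 0.535). The 6 intervals all lay below 1.

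In the first 3 Mb the counts of the chromosomes were close to each other. The density ratio of chromosome 11 over chromosome 12 there was 1.11 in LYP9 (0.406 to 3.09), 0.857 in 93-11 (0.362 to 2.00) and 0.714 in PA64s (0.179 to 2.61), intervals too wide to place one chromosome above the other.

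**Figure D1:**
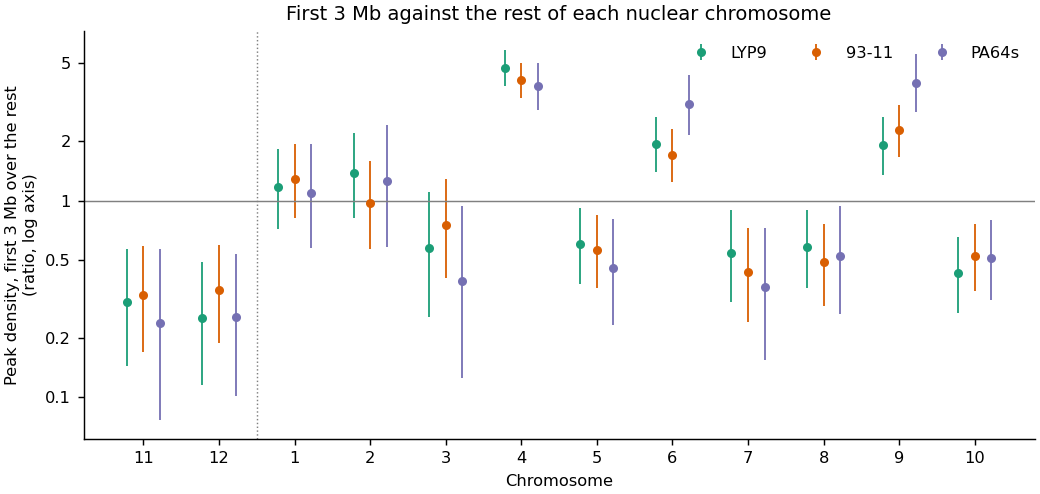
Peak density in the first 3 Mb divided by the density in the rest of the same chromosome (log axis) for chromosomes 11 and 12, left of the dotted line, and for the 10 other nuclear chromosomes; points are LYP9, 93-11 and PA64s, and bars are exact 95% intervals for counting error. The ratios of chromosomes 11 and 12, from 0.239 to 0.350, are below the other points of their own list, although the intervals overlap those of several other chromosomes.

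Measured as this ratio, chromosomes 11 and 12 were the lowest of the 12 nuclear chromosomes in each list. The lowest of the other 10 was 0.428 in LYP9 (0.268 to 0.652, chromosome 10), 0.435 in 93-11 (0.240 to 0.729, chromosome 7) and 0.363 in PA64s (0.155 to 0.730, chromosome 7), and these intervals overlapped those of chromosomes 11 and 12. In absolute counts the ends were also at or near the low extreme. Over the other 10 chromosomes the median count in the first 3 Mb was 22.5 peaks in LYP9, 25 in 93-11 and 12.5 in PA64s. The fewest there were on chromosome 3, with 9 LYP9 peaks, 14 of 93-11 and 5 of PA64s, close to the counts of either duplicated end. The input alignments are described as uniquely mapped, so a tag that fits both copies of the duplicated segment equally well is outside these lists. How far that bears on the low counts was not tested.

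The regions of the first 3 Mb were mostly in 1 list only. After overlapping peaks of the 3 lists were merged into regions, the first 3 Mb of chromosome 11 held 20 regions, of which 1 was present in all 3 lists and 14 were in 1 list only (70%, 45.7 to 88.1). The first 3 Mb of chromosome 12 held 25 regions, of which 0 were in all 3 lists and 20 were in 1 list only (80%, 59.3 to 93.2). In the rest of chromosome 11, 20.5% of 454 regions were in all 3 lists (16.9 to 24.5) and 53.3% were in 1 list only (48.6 to 58.0). In the rest of chromosome 12, 28.3% of 449 regions were in all 3 lists (24.2 to 32.7) and 45.0% were in 1 list only (40.3 to 49.7). Over the other nuclear chromosomes 50.7% of 4636 regions were in 1 list only. For that share the intervals of the first 3 Mb and the rest overlapped on chromosome 11 and were apart on chromosome 12.

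Signal is given here as the pileup, the number of extended tags stacked at the summit of a peak, scaled to 1000000 library tags. The median scaled pileup in the first 3 Mb of chromosome 12 was 1.59 in LYP9, 1.75 in 93-11 and 1.42 in PA64s, against 2.58, 2.70 and 2.26 in the rest of that chromosome. On chromosome 11 the first 3 Mb had medians of 1.98 in LYP9, 2.00 in 93-11 and 1.67 in PA64s, against 2.08, 2.10 and 1.84 in the rest. The first 3 Mb were thus lower on chromosome 12 and close to the rest on chromosome 11. The medians of the first 3 Mb rest on 5 to 14 peaks each.

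The region at chr11:779846-780028 was the sole region of either end present in all 3 lists. Its pileup was 72 tags in LYP9, 65 in 93-11 and 67 in PA64s. Its fold enrichment over the background modelled by MACS was 20.4 in LYP9, 20.8 in 93-11 and 13.8 in PA64s. By mean score percentile it was among the 5 strongest regions of the whole of chromosome 11. On chromosome 12 the strongest peaks of the first 3 Mb were far lower. The LYP9 peak at chr12:282844-282940 had a pileup of 29 tags, and the 93-11 peak at chr12:2104318-2104414 had 27, and each was found in 1 list only. Few peaks lay at like distances from the chromosome starts. Of the 20 regions of chromosome 11 in the first 3 Mb, 2 lay within 1 kb of a chromosome 12 region at the same distance from the start, 3 within 5 kb and 4 within 10 kb. The offset between the copies is not known in the coordinates used, so these counts are a description of position and not of homology.

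The longest stretches without peaks lay in or beside these ends in all cases but PA64s on chromosome 11. In LYP9 no peak was listed from 1522552 to 2985907 on chromosome 11, and in 93-11 none from 1053311 to 2985916. On chromosome 12 the longest empty stretch ran from 2476374 to 3617179 in LYP9, from 2476416 to 3617164 in 93-11 and from 2144135 to 3821537 in PA64s. The longest empty stretch of PA64s on chromosome 11 was elsewhere, from 14578567 to 16160267. That interval held 13 LYP9 peaks and 21 peaks of 93-11.

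In its central part, from 14.6 to 16.1 Mb, a part chosen after its values were seen, LYP9 had 12 peaks, 93-11 had 20 and PA64s had 0. The pileups there were modest, from 12 to 29 tags in LYP9 and from 15 to 31 in 93-11. Of the 12 LYP9 peaks, 5 were in LYP9 alone, and of the 20 peaks of 93-11, 13 were in 93-11 alone.

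**Figure D2:**
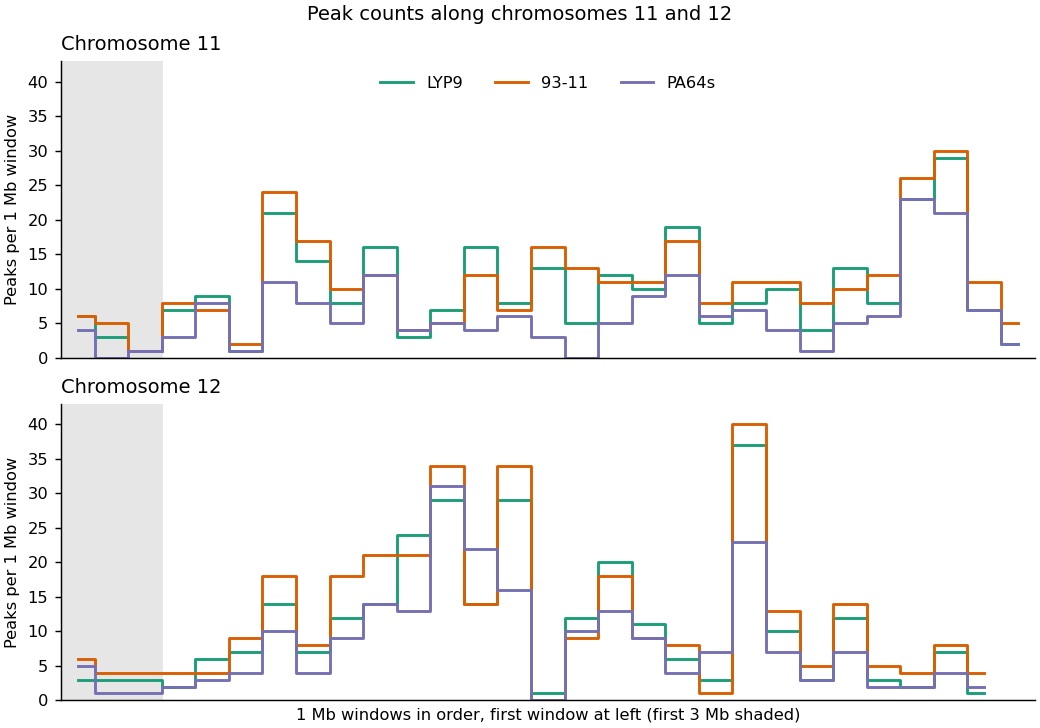
Number of peaks in each 1 Mb window of chromosomes 11 (top) and 12 (bottom), in order from the start of the chromosome at left, with the first 3 Mb shaded; lines are LYP9, 93-11 and PA64s. The shaded ends hold at most 6 peaks per window in any list, chromosome 11 has its highest counts near its far end, and chromosome 12 has them in the middle and in 1 isolated window of 37 LYP9, 40 93-11 and 23 PA64s peaks.

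Beyond the first 3 Mb a part of the peaks lay in a few dense windows. A 1 Mb window was called dense where it held at least 2 times the nuclear mean of its list (means of 9.25 peaks in LYP9, 10.5 in 93-11 and 6.36 in PA64s). Over all nuclear windows 12.2% were dense in LYP9, 10.9% in 93-11 and 11.9% in PA64s. Chromosome 11 had 4 dense windows of 29 in LYP9, 3 in 93-11 and 2 in PA64s, and chromosome 12 had 5 of 28 in LYP9, 3 in 93-11 and 7 in PA64s. The 7 windows of chromosome 12 in PA64s made up 25% of its windows, above the genome-wide share, and the other 5 counts made up 6.90% to 17.9%. Dense windows held 31.9% of the chromosome 11 peaks in LYP9, 25% in 93-11 and 24.0% in PA64s. On chromosome 12 they held 47.1% in LYP9, 32.0% in 93-11 and 57.9% in PA64s. Most peaks thus lay outside dense windows in each list on chromosome 11, and in LYP9 and 93-11 on chromosome 12. These shares of peaks have no genome-wide value beside them.

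The dense windows lay in different parts of the chromosomes. On chromosome 11 the fullest was 26 to 27 Mb, with 29 LYP9 peaks, 30 of 93-11 and 21 of PA64s. Its neighbour from 25 to 26 Mb held 23 LYP9 peaks, 26 of 93-11 and 23 of PA64s, and these 2 windows were the ones dense in all 3 lists. The window from 6 to 7 Mb followed, with 21, 24 and 11 peaks in LYP9, 93-11 and PA64s. On chromosome 12 the fullest was 20 to 21 Mb, with 37 LYP9 peaks, 40 of 93-11 and 23 of PA64s. The windows from 11 to 12 Mb (29 LYP9, 34 93-11 and 31 PA64s peaks) and from 13 to 14 Mb (29 LYP9, 34 93-11 and 16 PA64s peaks) were the other two dense in all 3 lists on chromosome 12.

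The far ends of the 2 chromosomes differed more than the short-arm ends did. In the last 3 Mb, an interval looked at after the data were seen, chromosome 11 held 51 LYP9 peaks, 62 of 93-11 and 48 of PA64s. Chromosome 12 held 13 LYP9 peaks, 21 of 93-11 and 10 of PA64s. The density ratio of chromosome 11 over chromosome 12 there was 3.92 in LYP9 (2.10 to 7.86), 2.95 in 93-11 (1.77 to 5.10) and 4.80 in PA64s (2.40 to 10.6). Over the other 10 chromosomes the median count in the last 3 Mb was 11 peaks in LYP9, 12 in 93-11 and 5.5 in PA64s. Both chromosomes were above these medians. Chromosome 5 had counts like those of chromosome 11, with 59 LYP9 peaks, 60 of 93-11 and 51 of PA64s. On chromosome 11 this interval overlaps the dense windows from 25 to 27 Mb.

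Peak lengths were close on the 2 chromosomes, and signal was lower on chromosome 11. The median length was 108 bp on chromosome 11 against 106 on chromosome 12 in LYP9, 112.5 against 106 in 93-11, and 108 against 102 in PA64s, and the ratio of the medians had intervals that included 1 in each list. The median scaled pileup was 2.08 on chromosome 11 against 2.58 on chromosome 12 in LYP9, 2.10 against 2.60 in 93-11, and 1.84 against 2.26 in PA64s. The ratio of chromosome 11 over chromosome 12 was 0.808 in LYP9 (0.714 to 0.958), 0.808 in 93-11 (0.714 to 0.958) and 0.815 in PA64s (0.700 to 0.958). The 3 lists thus gave nearly the same ratio. Without the cluster of chromosome 12 the ratio was 0.875 in LYP9 (0.769 to 1.05), 0.875 in 93-11 (0.769 to 1.05) and 0.88 in PA64s (0.778 to 0.958), and the first 2 of these intervals included 1. The peaks of the other nuclear chromosomes had medians of 2.28 in LYP9, 2.30 in 93-11 and 2.18 in PA64s, between those of the 2 chromosomes in each list.

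Ranked by median scaled pileup among the 12 nuclear chromosomes, chromosome 11 was 9 in LYP9, 10 in 93-11 and 11 in PA64s, and chromosome 12 was 2, 2 and 3. A score of at least 15 was reached by 42.4% of chromosome 11 peaks in LYP9 (36.6 to 48.3), 42.2% in 93-11 (36.7 to 47.8) and 39.9% in PA64s (32.7 to 47.4). The shares on chromosome 12 were 57.6% in LYP9 (51.8 to 63.3), 61.7% in 93-11 (56.3 to 66.9) and 57.0% in PA64s (50.3 to 63.5). The intervals of the 2 chromosomes did not overlap in any list. With no genome-wide share beside them, these values do not show which of the 2 chromosomes was unusual. Without the cluster the chromosome 12 shares were 52.1% in LYP9 (45.9 to 58.3), 57.3% in 93-11 (51.5 to 62.9) and 52.7% in PA64s (45.6 to 59.6), and only the interval of 93-11 was then clear of that of chromosome 11.

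**Figure D3:**
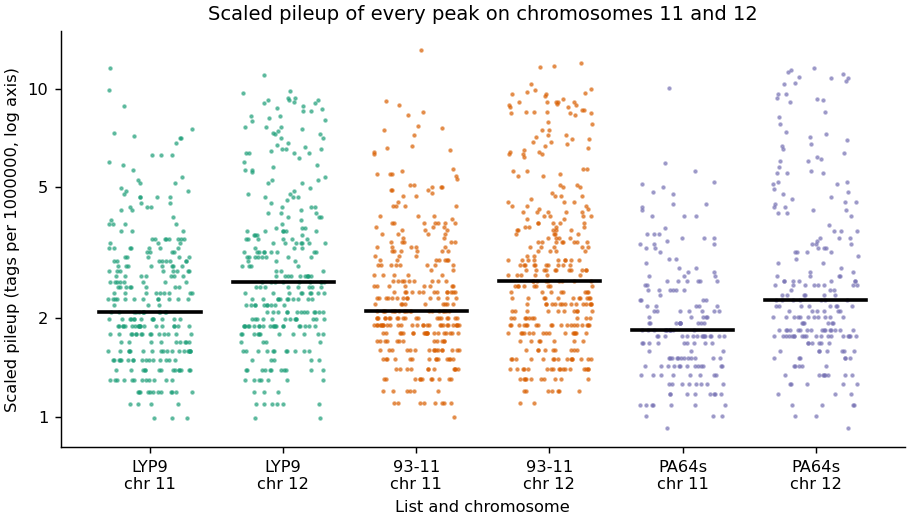
Scaled pileup (tags per 1000000 library tags, log axis) of each peak on chromosome 11 and chromosome 12 in LYP9, 93-11 and PA64s; each point is a peak, spread sideways at random for visibility, and the black line is the median. The chromosome 11 median lies below the chromosome 12 median in each list, and chromosome 12 has a group of peaks near 10 that is thin on chromosome 11.

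The strongest regions were few on chromosome 11 and gathered in 1 place on chromosome 12. On chromosome 11 the region at chr11:27809517-27809831 led, with pileups of 116 tags in LYP9, 131 in 93-11 and 120 in PA64s. The next, chr11:7150387-7150535, had 69 tags in LYP9, 72 in 93-11 and 61 in PA64s. The region at chr11:18300188-18300424 had 100 tags in LYP9, 92 in 93-11 and 62 in PA64s, so that it was weaker in PA64s despite the larger library. The region at chr11:26159532-26159766, inside the fullest window of the chromosome, had 60 tags in LYP9, 56 in 93-11 and 51 in PA64s.

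Of the 5 strongest regions of chromosome 12, 4 lay in the cluster from 20434420 to 20635078, led by chr12:20499923-20500189. By score in the LYP9 list by itself, the highest peak of chromosome 12 was outside the cluster. It lay at chr12:18396895-18397034, with a score of 125. The region at chr12:20593615-20593914 had pileups of 86 tags in LYP9, 91 in 93-11 and 130 in PA64s. The region at chr12:20594896-20595041 had 80 in LYP9, 91 in 93-11 and 134 in PA64s. The region at chr12:20470855-20471003 had 76 in LYP9, 75 in 93-11 and 123 in PA64s. The fifth region, chr12:13401015-13401182, lay outside the cluster and had 93 in LYP9, 84 in 93-11 and 129 in PA64s. All 4 were highest in PA64s, whereas the 4 regions of chromosome 11 in the preceding paragraph were each lower in PA64s than in 93-11. The other of the 5 strongest on chromosome 11, chr11:779846-780028, had 67 tags in PA64s against 65 in 93-11. Scaled to library tags it was lower in PA64s, at 5.61 against 6.50.

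With the 2 chromosomes pooled, sharing among the cultivars was close to the genome-wide shares, which include these 2 chromosomes. A peak counted as found in another list where it overlapped a peak of that list by at least 1 bp. Of the 583 LYP9 peaks on the 2 chromosomes 72.2% were found in 93-11, beside 71.9% over all nuclear chromosomes, and 43.2% in PA64s, beside 45.4%. Of the 657 peaks of 93-11, 64.5% were found in LYP9, beside 63%, and 37.3% in PA64s, beside 39%. For PA64s, with 411 peaks, 62.0% had a counterpart in LYP9, beside 66.5%, and 59.9% in 93-11, beside 65.4%. The pooled shares were within 6 percentage points of the genome-wide ones.

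Split by chromosome, the share of LYP9 peaks found in 93-11 was 68.4% on chromosome 11 and 75.9% on chromosome 12, and the share found in PA64s was 36.8% and 49.5%. The share of 93-11 peaks found in LYP9 was 61.9% on chromosome 11 and 67.1% on chromosome 12, and in PA64s 32.5% and 41.8%. The share of PA64s peaks found in LYP9 was 58.5% on chromosome 11 and 64.9% on chromosome 12, and in 93-11 57.4% and 61.8%. Chromosome 11 had the lower share in each of the 6 directions, which use the same lists and are not independent. The intervals of the 2 chromosomes overlapped in 5 of the 6 and were apart for LYP9 peaks found in PA64s (31.2 to 42.7 on chromosome 11 and 43.6 to 55.3 on chromosome 12). Over the other nuclear chromosomes the LYP9 shares were 71.8% in 93-11 and 45.8% in PA64s (44.0 to 47.6). Those of 93-11 peaks were 62.7% in LYP9 and 39.4% in PA64s. Those of PA64s peaks were 67.5% in LYP9 and 66.5% in 93-11. Chromosome 11 lay below each of these, with its interval clear of theirs only for LYP9 peaks found in PA64s. Chromosome 12 lay below them only for PA64s peaks. Each chromosome had 474 merged regions, of which 94 were in all 3 lists on chromosome 11 (19.8%, 16.3 to 23.7) and 127 on chromosome 12 (26.8%, 22.9 to 31.02), beside 25.3% over all nuclear regions. These intervals overlapped, and chromosome 12 was near the genome-wide share. Without the cluster the share on chromosome 12 was 24.3% (20.4 to 28.6).

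**Figure D4:**
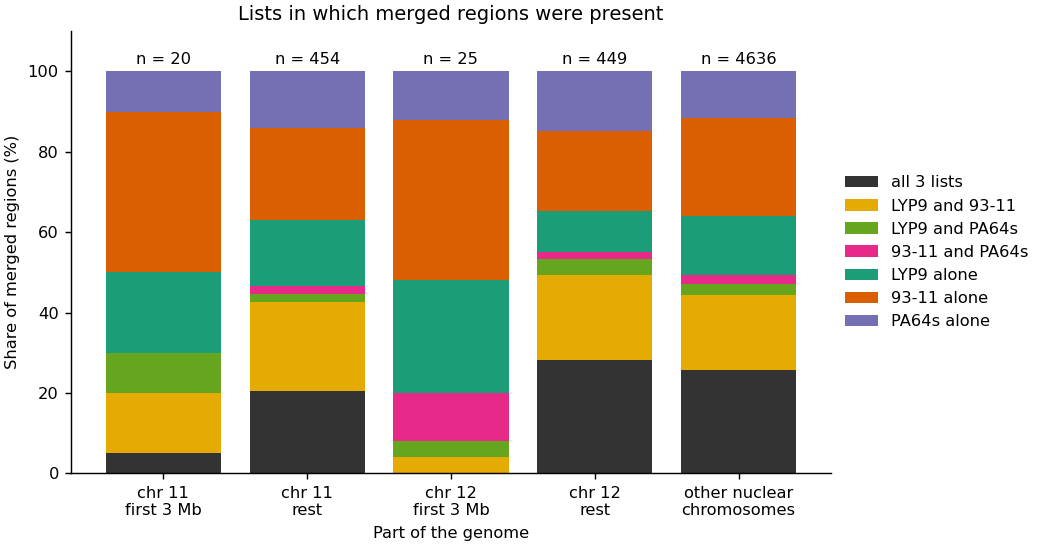
Share of merged regions (%) by the lists in which they were present, for the first 3 Mb and the rest of chromosomes 11 and 12 and for the other nuclear chromosomes; n is the number of regions. Regions in all 3 lists make up 1 of 20 and 0 of 25 regions in the first 3 Mb, against 20.5% and 28.3% in the rest of chromosomes 11 and 12.

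Sharing went with the score of a peak. On the 2 chromosomes all 78 LYP9 peaks and all 87 peaks of 93-11 with a score of at least 40 were found in another list, as were 54 of 57 in PA64s. Below a score of 10 the shares were 43.6% in LYP9 (35.5 to 52.0), 33.5% in 93-11 (26.5 to 41.2) and 28% in PA64s (19.5 to 37.9). The shares by score have no genome-wide value beside them, so they are not shown to be particular to these chromosomes. Among peaks with a score of at least 15 in both lists, the order of the chromosomes was no longer the same in every direction. The share of PA64s peaks found in LYP9 was then 80.8% on chromosome 11 and 76.9% on chromosome 12, the share found in 93-11 was 80.8% and 71.5%, and the share of 93-11 peaks found in LYP9 was 73.3% and 73.1%. The other directions kept chromosome 11 below chromosome 12, as did the share of regions in all 3 lists, at 32.5% and 35.1% with intervals that overlapped. Where a region was present in all 3 lists, the summits lay close together. With 1 peak from each list, the median distance between the outermost summits was 11 bp on chromosome 11 (91 regions) and 7 bp on chromosome 12 (123 regions). The summits fell within 10 bp in 45 of the 91 and in 75 of the 123.

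Peaks of one list alone were weaker. The median scaled pileup of LYP9 peaks found in another list was 2.68, against 1.59 for LYP9 peaks found in none. The medians were 2.90 against 1.80 in 93-11 and 2.39 against 1.51 in PA64s. Some peaks of one list alone were nevertheless well above these medians. The strongest PA64s peak without a counterpart on chromosome 11, at chr11:11858402-11858542, had a pileup of 42 tags and a fold enrichment of 14.9. On chromosome 12 the strongest such PA64s peak, at chr12:11993394-11993504, had a pileup of 61 and a fold enrichment of 16.1. The strongest peak of LYP9 alone on chromosome 11, at chr11:4266563-4266671, had a pileup of 27, and that of 93-11 alone, at chr11:14553246-14553379, had 32. The peak of 93-11 had a LYP9 peak within 500 bp, and the other 3 had no peak of another list that near. The next PA64s peak on chromosome 12, chr12:11990347-11990458 with 59 tags, had a LYP9 peak within 500 bp.

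LYP9 had a counterpart for more of the 93-11 peaks absent from PA64s than of the PA64s peaks absent from 93-11. Of the 412 peaks of 93-11 on the 2 chromosomes that were absent from PA64s, 200 were found in LYP9 (48.5%, 43.6 to 53.5), beside 44.5% over all nuclear chromosomes. Of the 165 PA64s peaks absent from 93-11, LYP9 had 30 (18.2%, 12.6 to 24.9), beside 19.5%. Both shares were near the genome-wide ones. The split was alike on the 2 chromosomes, at 48.1% and 15.4% on chromosome 11 and 49.0% and 20.7% on chromosome 12. By parent, 37.9% of the LYP9 peaks overlapped both, 34.3% overlapped 93-11 alone, 5.32% PA64s alone and 22.5% neither. The genome-wide shares were 40.7% for both, 31.2% for 93-11 alone, 4.64% for PA64s alone and 23.5% for neither, again close to these. On chromosome 11 the peaks found in neither parent made up 27.1% (22.0 to 32.6), against 18.0% on chromosome 12 (13.8 to 22.8), with intervals that overlapped.

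At regions present in all 3 lists the pileup of LYP9 was close to that of 93-11 and above that of PA64s. On chromosome 11, over 94 regions, the median ratio of scaled pileups was 0.939 for LYP9 over 93-11 (0.907 to 0.993), 1.39 for LYP9 over PA64s (1.26 to 1.51) and 1.41 for 93-11 over PA64s (1.34 to 1.54). On chromosome 12, over 127 regions, the medians were 0.95 (0.920 to 0.980), 1.26 (1.13 to 1.33) and 1.30 (1.24 to 1.39) for the same ratios. Over the other nuclear chromosomes they were 0.948, 1.33 and 1.39. Without the cluster the chromosome 12 medians were 1.31 for LYP9 over PA64s and 1.37 for 93-11 over PA64s. In terms of fold enrichment over the MACS background, the ratio of LYP9 over PA64s on chromosome 11 was 1.17 and that of 93-11 over PA64s 1.18, both smaller than with the scaled pileup. On chromosome 12 the fold ratios were 1.23 and 1.22. By this measure chromosome 11 was thus the lower of the chromosomes, with intervals that overlapped.

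A 1.5-fold difference served as the limit for counting single regions, and this is a rule of size and not a test. LYP9 exceeded 93-11 by that much at 1 of the 94 regions of chromosome 11 and 1 of the 127 of chromosome 12, beside 0.709% over all nuclear regions. LYP9 was lower than 93-11 by that much at 3 regions on each chromosome, beside 2.06%. The 2 higher regions were chr11:8834262-8834413, with 31 tags in LYP9 against 19 in 93-11, and chr12:12284970-12285075, with 40 against 26. The lowest ratio of LYP9 over 93-11 was 0.504, at chr12:11695034-11695159, with 32 tags in LYP9 against 63 in 93-11.

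LYP9 exceeded PA64s 1.5-fold at 38 regions of chromosome 11 and 28 of chromosome 12 (40.4% and 22.0%), beside 29.4% over all nuclear regions. For 93-11 over PA64s the counts were 41 and 38 (43.6% and 29.9%), beside 37.7%. Without the cluster the chromosome 12 shares were 26.2% for LYP9 over PA64s and 35.5% for 93-11 over PA64s. In the other direction LYP9 was lower than PA64s by that much at 0 regions of chromosome 11 and 6 of chromosome 12 (4.72%), beside 1.13%. For 93-11 below PA64s the counts were 0 and 3 (2.36%), beside 0.638%. The LYP9 pileup lay at or between those of its parents at 53 of 94 regions on chromosome 11 and 65 of 127 on chromosome 12. These shares were 56.4% and 51.2%, beside 58.1% over all nuclear regions. Without the cluster the chromosome 12 share was 57.0% (61 of 107), and in the cluster it was 20% (4 of 20, 5.73 to 43.7). Outside the cluster the hybrid was thus between its parents about as often as over all nuclear regions.

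The 6 regions of chromosome 12 where LYP9 was lower than PA64s fell in 3 places. At 8.5 to 8.6 Mb, chr12:8542965-8543064 had 27 tags in LYP9, 30 in 93-11 and 53 in PA64s, and chr12:8549068-8549289 had 11, 20 and 27. At 13.3 to 13.5 Mb, chr12:13368066-13368238 had 14 tags in LYP9, 13 in 93-11 and 27 in PA64s. The other 3 were in the cluster from 20434420 to 20635078. One of them, chr12:20505521-20505657, had 42 tags in LYP9, 51 in 93-11 and 85 in PA64s, a ratio of LYP9 over PA64s of 0.586.

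This cluster stood apart from the rest of chromosome 12. It held 34 LYP9 peaks, 35 of 93-11 and 21 of PA64s in 34 regions. Of these regions 20 were in all 3 lists, 12 in LYP9 and 93-11, 1 in LYP9 and PA64s and 1 in 93-11 alone. The median pileup was 61 tags in LYP9, 72 in 93-11 and 112 in PA64s. The longest peaks of chromosome 12 were here, 1688 bp in LYP9, 1743 bp in 93-11 and 1277 bp in PA64s, and the cluster held 20.04% of the bases in chromosome 12 peaks in LYP9, 17.7% in 93-11 and 17.2% in PA64s.

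PA64s had fewer peaks in this cluster but the higher scaled pileup in each region it shared. By that measure LYP9 was below PA64s at all 20 regions in all 3 lists, with a median ratio of 0.754 and a range from 0.586 to 0.953. For 93-11 over PA64s the median was 0.829 and for LYP9 over 93-11 it was 0.923. Over the 107 other such regions of chromosome 12 the median ratio of LYP9 over PA64s was 1.31. In fold enrichment the order of the lists varied between regions of the cluster. At chr12:20499923-20500189 it was 37.8 in LYP9, 36.3 in 93-11 and 32.5 in PA64s. At chr12:20470855-20471003 it was 36.3 in LYP9, 35.2 in 93-11 and 49.6 in PA64s. Several regions missing from the PA64s list were strong in both other lists. The region at chr12:20601018-20601169 had 93 tags in LYP9 and 120 in 93-11, and the one at chr12:20613979-20615721 had 81 and 99, with no peak in PA64s.

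In scaled pileup the ratios in the cluster were near those of the mitochondrial chromosome, and in fold enrichment they were not. Over 85 mitochondrial regions in all 3 lists the median ratio was 0.771 for LYP9 over PA64s, 0.817 for 93-11 over PA64s and 0.936 for LYP9 over 93-11. The regions in 2 other places of chromosome 12 had like ratios of LYP9 over PA64s, 0.763 at 8.5 to 8.6 Mb (4 of 5 regions below 1) and 0.760 at 13.3 to 13.5 Mb (5 of 5). These places, too, were chosen after their values were seen. Whether mitochondrial tags have a part in the pileups there was not tested. At most 2 tags were kept per position, which limits how high a pileup can rise. Whether that limit bears on the ratios of the highest regions was not tested. The local background modelled by MACS in the cluster was 3.10 tags in LYP9, 3.74 in 93-11 and 4.08 in PA64s (medians over peaks). Measured as fold enrichment over that background, the ratio of LYP9 over PA64s was 0.918 in the cluster, 1.30 in the rest of chromosome 12 and 1.09 on the mitochondrial chromosome. For 93-11 over PA64s it was 0.951 in the cluster and 1.11 on the mitochondrial chromosome, so that by this measure the mitochondrial medians lay above 1 and those of the cluster below. The fold ratios were taken over unlike backgrounds. On the mitochondrial chromosome the median background was 18.6 tags in LYP9, 28.7 in 93-11 and 39.8 in PA64s, a wider spread between lists than in the cluster.

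**Figure D5:**
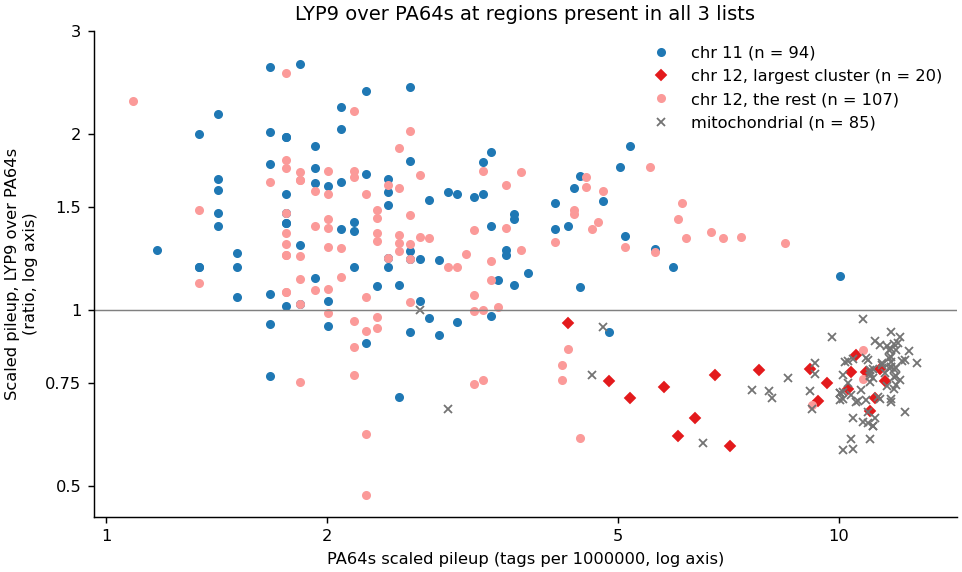
Ratio of scaled pileups, LYP9 over PA64s (log axis), against the PA64s scaled pileup (tags per 1000000, log axis) for each region in all 3 lists on chromosome 11, in the largest cluster of chromosome 12, in the rest of chromosome 12 and on the mitochondrial chromosome. The 20 regions of the cluster lie below 1, as do 84 of the 85 mitochondrial points, and most regions of chromosome 11 and of the rest of chromosome 12 lie above 1.

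Another crowded stretch of chromosome 12 held more peaks in PA64s than in the other lists. Between 11.9 and 12.1 Mb the 29 PA64s peaks made up 12.7% of its peaks on the chromosome, against 4.07% of the LYP9 peaks and 2.97% of the 93-11 peaks on the chromosome. LYP9, at 60 peaks per Mb, and 93-11, at 50, were also well above their chromosome 12 densities there. Just before it, from 11.3 to 11.8 Mb, LYP9 had 21 peaks, 93-11 had 29 and PA64s had 18, and 15 of the 32 regions there were in all 3 lists. The neighbouring stretches thus differed in which list had most peaks. At 13.3 to 13.5 Mb the order was different again, with 18 LYP9 peaks, 22 of 93-11 and 6 of PA64s. On chromosome 11 the stretch from 25 to 27 Mb held 52 LYP9 peaks, 56 of 93-11 and 44 of PA64s, of which 7, 13 and 19 were in LYP9, 93-11 and PA64s alone.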

How the data were processed

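Panicle DNA of 3 cultivars, 1 library each, was analysed from the authors' deposited peak lists. Peaks were called with MACS 2.0.9 without a control, per the file headers, at a q-value cutoff of 0.01, with at most 2 tags kept per position and a lambda range of 10000 bp. BWA 0.5.8 is named in the submitters' processing notes. No genome build is named in the sources used here. The deposited columns were used as pileup signal, −log10 p-value and −log10 q-value, fold enrichment (a ratio to the modelled background) and positions.

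Computed here, with Python 3.11.15, numpy 2.4.6, pandas 2.3.3 and scipy 1.17.1, were densities per Mb, pileup scaled to 1000000 header tags, 1 Mb windows, overlap of at least 1 bp and merged regions. The interval routines for density ratios and for medians were tested on simulated data. Named regions are, per chromosome, the 5 in all 3 lists with the highest mean score percentile, those in the first 3 Mb, the 3 densest windows and, per list, the 2 highest-scoring peaks found in that list alone. Regions past the 1.5-fold limit, the largest cluster, the stretches and the strongest peaks of the first 3 Mb of chromosome 12 were named after their values were seen. The members and lists were chosen with earlier results of these data known. An available gene table is of another assembly and was not joined. Alternatives were a −log10 p-value of at least 15, boundaries of 2 and 4 Mb, other overlap rules, lists of equal size, and fold enrichment in place of pileup. Others merged peaks within 500 bp or left out the densest 1 Mb window of a chromosome. An alternative without the largest cluster of chromosome 12, and the score limit and fold enrichment for the cultivar ratios, were added after seeing the data.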

Additional observations from a re-analysis of the deposited data

Results flagged for a closer look

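The last 3 Mb of the 2 chromosomes differed in opposite directions from the rest of the same chromosome. In LYP9 the density ratio of the last 3 Mb over the rest was 1.83 on chromosome 11 and 0.372 on chromosome 12. In 93-11 it was 2.04 on chromosome 11 and 0.536 on chromosome 12. In PA64s it was 3.02 on chromosome 11 and 0.370 on chromosome 12. The difference between the chromosomes was not tested. Over the other 10 nuclear chromosomes this ratio ran from 0.161 to 1.72 in LYP9, from 0.132 to 1.48 in 93-11 and from 0.0785 to 2.32 in PA64s. Chromosome 12 lay inside these ranges and chromosome 11 above them.

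The median pileup ratio of LYP9 over PA64s was 0.754 in the largest cluster of chromosome 12, from 20434420 to 20635078, and 1.31 in the rest of chromosome 12. The cluster was chosen after its values were seen, and the difference was not tested.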

How the results depend on the processing

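Of 98 alternative values of the main results, 66 stayed within the counting error, 31 moved beyond it and 1 reversed, and the causes were not tested. Keeping only peaks with a −log10 p of at least 15, the density ratio of chromosome 11 over chromosome 12 was 0.685 in LYP9, 0.620 in 93-11 and 0.536 in PA64s, the ratio of the first 3 Mb over the rest of chromosome 12 was 0.0477 in LYP9 and 0.158 in 93-11, and 34.0% of merged regions were in all 3 lists. Sharing on the 2 chromosomes was then 85.3% for LYP9 in 93-11, 54.1% for LYP9 in PA64s, 73.2% for 93-11 in LYP9, 44.6% for 93-11 in PA64s, 78.3% for PA64s in LYP9 and 74.9% for PA64s in 93-11. With an overlap of at least 50% of both peaks the same 6 shares were 68.1%, 37.4%, 60.4%, 33.2%, 53.04% and 53.04%. Counting peaks within 500 bp as shared, the first 4 were 76.5%, 48.7%, 70.2% and 43.8%. With lists of equal size, the 411 highest-scoring peaks each, the 6 were 76.6%, 53.3%, 77.1%, 50.4%, 54.3% and 50.9%. With fold enrichment in place of the pileup, LYP9 over PA64s was 1.17 and 93-11 over PA64s 1.18 on chromosome 11, 93-11 over PA64s was 1.22 on chromosome 12, and LYP9 over 93-11 reversed to 1.01 on chromosome 12. Boundaries at 2 or 4 Mb kept the first part below the rest in all 12 values. No paired analysis was possible because each cultivar has 1 library. Values in the first 3 Mb rest on 5 to 14 called peaks per list and chromosome, and the effect of depth was not tested.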
